A study of Homo sapiens with 12 samples.

Results

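Gene expression was compared between PC-3 cells that carried a PIM1 expression vector (labelled PIM1, 2 samples) and PC-3 cells that carried the empty vector (labelled control, 2 samples), neither with added NFATC1. These are 4 of the 12 samples and 2 of the 6 groups of the series, and they were chosen by their labels alone. PC-3 is a human prostate adenocarcinoma cell line that grows without androgen. Both lines were made from pools of cells that had been cotransfected with a fluorescent marker plasmid and selected with G418, so each arm is 1 selected pool and any difference between the pools enters with PIM1. The other 8 samples hold the same pools after transient transfection with wild-type NFATC1 (WT on the control pool, PIM1 + WT on the PIM1 pool) or with NFATC1 that lacks its PIM1 target sites (MM and PIM1 + MM), with 2 samples per group.

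Each array carried 2 samples, and the 4 samples filled 2 arrays. Both control samples were labelled with Cy3 and both PIM1 samples with Cy5, so that dye and PIM1 cannot be told apart in the comparison of PIM1 with control. The comparisons of PIM1 + WT with WT, both in Cy3, and of PIM1 + MM with MM, both in Cy5, hold the dye fixed but not the array. WT shared its arrays with MM, and PIM1 + WT shared other arrays with PIM1 + MM, so array and PIM1 cannot be told apart there. The median raw signal was 139 and 130.5 in the WT samples and 102 and 86 in the PIM1 + WT samples. The mean of these 2 comparisons, called here the difference within a dye, uses none of the 4 samples but the same pair of pools. A level is a quantile-normalized log2 signal, a difference is on the log2 scale (1 is a doubling), and a gene was called where its adjusted p was below 0.05 and its difference was at least 1 in either direction.

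PIM1 is a serine/threonine kinase that is active as soon as it is made, so that its level sets its activity. It is induced through JAK and STAT signalling, phosphorylates proteins that act in survival, the cell cycle, cap-dependent translation and transcription, and is often raised in prostate cancer. PC-3 cells are known for a motile, poorly differentiated state.

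The 2 arrays were not alike. Replicate 1 of both groups shared the array with more outlier spots (835 and 564 in its 2 channels, against 239 and 230), and its 2 channels correlated least with the other channels (mean r = 0.986). Between 56.9% and 68.5% of the spots of the 4 channels were well above background. Epithelial keratins were high, KRT18 at 14.14 in control and 13.99 in PIM1 cells and KRT19 at 15.65 and 15.96, whereas of the basal markers KRT5, KRT14 and TP63 were not well above background in either group and KRT15 was well above it in all 4 samples (11.48 in control and 10.94 in PIM1 cells, adjusted p = 0.000202). CDH1 was well above background in the control samples only (6.68 against 6.47).

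The PIM1 transcript itself checks the labels only weakly. Its probe gave 10.05 and 9.85 in the control samples and 10.32 and 10.08 in the PIM1 samples, so that the groups did not overlap, but the lowest PIM1 sample lay just above the highest control sample. The difference was 0.25 (SE 0.0995, adjusted p = 0.107), it turned to -0.31 after median centring, and within a dye it was -0.04 (adjusted p = 0.748). Where this probe lies relative to the expressed construct is not known here, and every direction below rests on the labels. A qPCR check of PIM1 by the authors is not analysed here. The related kinases PIM2 and PIM3 differed by 0.26 (adjusted p = 0.0217) and 0.23 (adjusted p = 0.122).

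Of 25471 genes tested, 299 were called between PIM1 and control cells (1.17%), 130 higher (0.51%) and 169 lower (0.663%). The sign was the same on both arrays for 296 of them. Within a dye, 234 genes were called (0.919%), 132 higher (0.518%) and 102 lower (0.4%), and 149 genes were called in both comparisons in the same direction, which is 49.8% of the first list and 63.7% of the second. No gene was called in opposite directions, and 285 of the 299 kept their sign in the other 8 samples. The split was unequal by direction: 76 of the 130 higher genes and 73 of the 169 lower genes were also called within a dye. The difference between the 2 comparisons, tested gene by gene in the same fit, was called for 98 genes (0.385%), 87 of them further down in PIM1 against control (0.342%). It was called for 1 of the 130 higher and for 31 of the 169 lower genes. Median centring in place of quantile normalization gave 1596 calls, 221 higher and 1375 lower, and subtracting MM minus WT to remove a fixed dye difference gave 301, 180 higher and 121 lower. MM and WT cells also differ in the NFATC1 protein they express, so this subtraction does not isolate the dye.

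**Figure D1:**
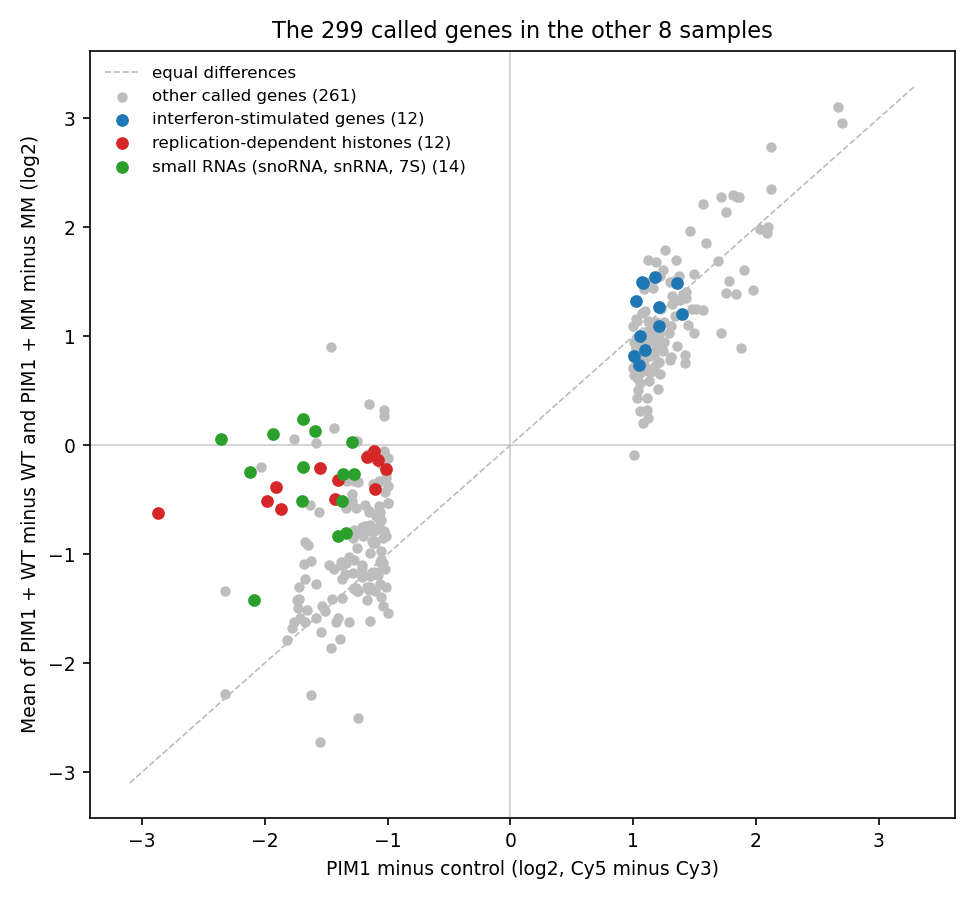
Difference of each of the 299 called genes between PIM1 and control cells (x axis, log2) against its mean difference within a dye in the other 8 samples (y axis, log2), with 3 gene groups coloured and a dashed line at equal differences. The 12 interferon-stimulated genes lie near the line between 0.74 and 1.54 on the y axis, and the 12 histone genes lie between -0.62 and -0.05 on it.

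The largest increases were in secreted mucosal proteins. Trefoil factors are small cysteine-rich peptides that gut and airway epithelia secrete together with mucins. TFF1 gave 10.22 and 10.18 in the control samples and 12.93 and 12.87 in the PIM1 samples, a difference of 2.70 (SE 0.0559, adjusted p = 3.71e-08). TFF2 gave 10.50 and 10.49 against 13.17 and 13.17, a difference of 2.67 (SE 0.0517, adjusted p = 3.71e-08). All 4 PIM1 values lay more than 2.5 above every control value, and the gap was as wide in the other samples, 2.96 for TFF1 and 3.10 for TFF2 within a dye. In such bulk RNA, more cells that express a gene and more RNA per cell cannot be told apart. TFF3, the neighbouring family member, had a low signal that was well above background in all 4 samples. It rose by less than the size of a call (6.51 and 6.43 against 6.89 and 7.01, a difference of 0.48, adjusted p = 0.00608). Within a dye it differed by 0.45 (adjusted p = 0.00086).

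Other genes of mucosal epithelia moved with the trefoil factors. AGR2, a protein disulphide isomerase needed for mucin folding, rose by 1.98 (11.08 and 11.11 against 13.24 and 12.91). ST6GALNAC1 adds sialic acid to mucin-type glycans. Its signal did not clear background in either control sample, and it was at least 2.53-fold higher in PIM1 cells (adjusted p = 2.97e-06). These 4 were the called members of a list of 32 tested genes of mucosal secretion, whose median difference was 0.24 beside 0.01 for all genes. All 4 were also called within a dye. The shares of all genes called higher were 0.51% and, within a dye, 0.518%. FOXA2 and FOXA1, transcription factors of glandular epithelia in the same list, differed by 0.27 and 0.45 and, within a dye, by -0.09 and -0.08. Outside that list, the calcium-binding S100P (1.19) and the vesicle fusion protein VAMP8 (1.85) were called in both comparisons, as were the membrane protease PRSS8 (1.26), the tetraspanin TSPAN8 (1.45) and the secreted FAM3D (1.46), which were chosen after their values were seen.

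**Figure D2:**
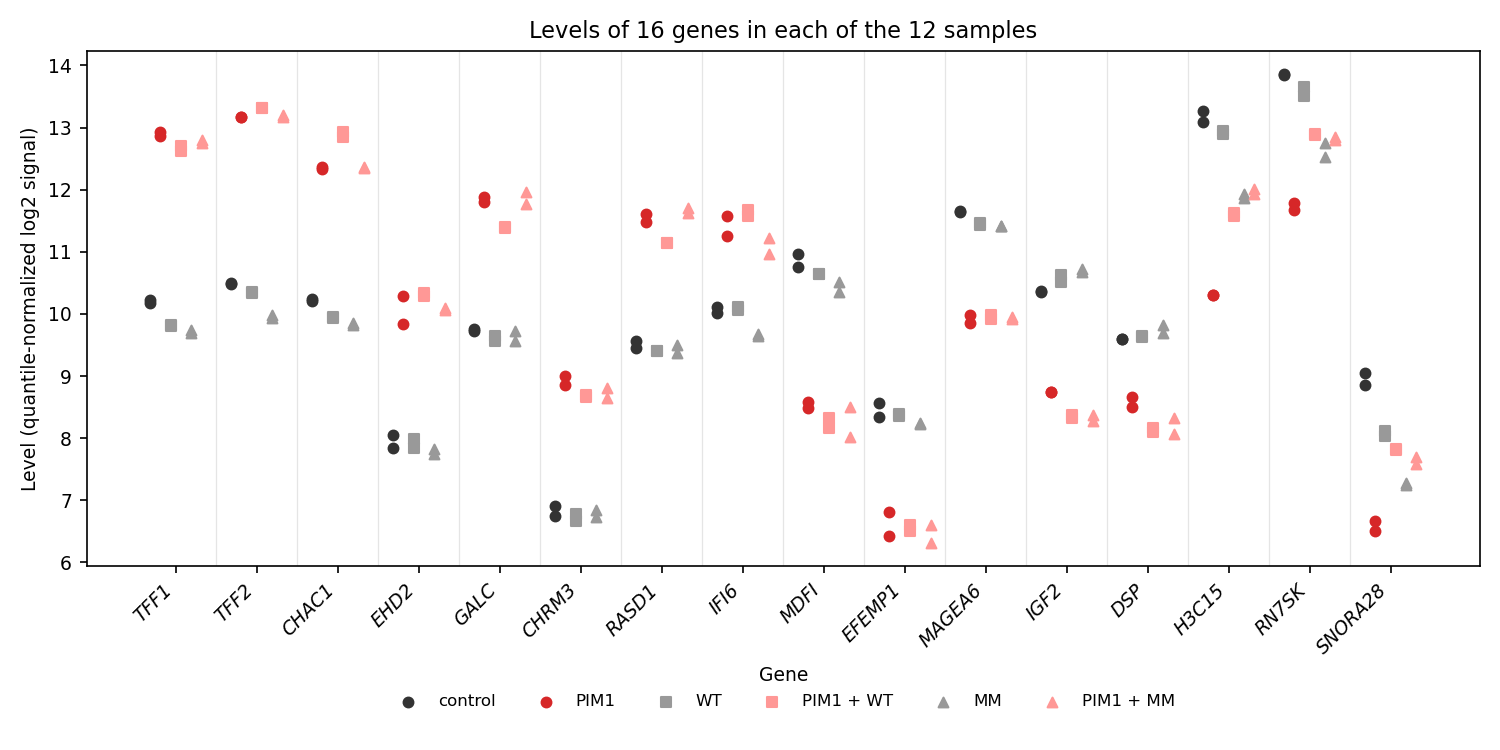
Level (quantile-normalized log2 signal, y axis) of 16 genes in each of the 12 samples, with 2 points per group, black for control, red for PIM1, grey for the control pool with NFATC1 and pink for the PIM1 pool with NFATC1. For TFF1 through DSP the pink points lie with the red and the grey with the black, while for H3C15, RN7SK and SNORA28 the PIM1 points lie below those of every other group.

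The integrated stress response raises amino acid transport and synthesis genes through the factor ATF4 when translation initiation is inhibited. CHAC1, a glutathione-degrading enzyme induced in this response, gave 10.24 and 10.21 in control and 12.33 and 12.37 in PIM1 samples. Its difference of 2.12 (SE 0.0538, adjusted p = 1.18e-07) was 2.74 within a dye, and its 2 probes gave 2.05 and 2.19. GDF15, a stress-induced cytokine, rose by 1.5 (14.73 and 14.77 against 16.39 and 16.12). The amino acid transporters SLC7A11, which imports cystine, and SLC7A5, which imports large neutral amino acids, rose by 1.11 and 1.03. Neither was called within a dye (0.81 and 0.83), and SLC7A11 was not called without the array of replicate 1. These 4 were the called members among 35 tested, beside 0.51% of all genes called higher. At an adjusted p below 0.05 whatever the size, 18 members were higher and 3 lower (12.7% and 12.5% of all genes). The list's median was 0.24 (0.45 within a dye), though -0.29 after median centring. ATF4 itself differed by 0.01 (adjusted p = 0.964) and by 0.47 within a dye (adjusted p = 0.000427). The ATF4 target TRIB3 differed by -0.55 and by 0.03 within a dye and was not called.

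The promoter of CHAC1 is shown because the gene led this list. It is given as the 250 bases before the transcript start in RefSeq (GRCh38.p14, chr15:40953221-40953470, plus strand), with capitals on a match to TGATGNAA, the core of the amino acid response element, read on the opposite strand.
CHAC1: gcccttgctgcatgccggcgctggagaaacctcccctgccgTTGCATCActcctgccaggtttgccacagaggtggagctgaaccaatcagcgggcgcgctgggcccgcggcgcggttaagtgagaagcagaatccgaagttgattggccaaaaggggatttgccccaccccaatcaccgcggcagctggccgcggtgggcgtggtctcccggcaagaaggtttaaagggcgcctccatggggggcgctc
Of 29 listed genes with a promoter in the table, 7 held this motif on either strand, as did 1061 of 27305 genes in all (3.89%).

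Interferon-stimulated genes formed the broadest group of increases. Interferons activate a transcription factor complex that contains IRF9 and binds a GAAA repeat in the promoters of antiviral genes. Of the 49 tested genes of the list, 12 were called higher and 0 lower, beside 0.51% and 0.663% of all genes. Upward differences held for 42, and the median was 0.61 (0.66 within a dye, with 13 called higher, beside 0.518% of all genes). At an adjusted p below 0.05 whatever the size, 31 were higher and 1 was lower (12.7% and 12.5% of all genes). IFI6, an antiviral mitochondrial and endoplasmic reticulum protein, gave 10.11 and 10.01 against 11.58 and 11.26, a difference of 1.36 (SE 0.114, adjusted p = 5.14e-05). IFITM1, which blocks viral entry at the plasma membrane, gave 11.15 and 11.17 against 12.43 and 12.30, and the oligoadenylate synthetase-like OASL 13.86 and 13.84 against 15.03 and 15.08, both a difference of 1.21. In each of these the lowest PIM1 sample lay above the highest control sample. IFI44 rested on replicate 2 alone, since its spot was flagged on the other array (11.43 against 12.83). The other 8 called were LGALS3BP, IFI44L, BST2, IFITM2, IFIH1, IRF9, DDX60 and MX2, between 1.01 and 1.18. BST2, which tethers budding virions, gave 9.34 and 9.26 against 10.52 and 10.43, and 1.54 within a dye. The ubiquitin-like ISG15 differed by 0.82 (15.59 and 15.56 against 16.36 and 16.44) and was not called. The list does not hold every interferon-stimulated gene. LY6E, outside it, was called lower, with a difference of -1.21 and of -1.21 within a dye.

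The number of calls in this group depended on the scaling. The 12 calls became 1 after median centring (with 1 lower, and a list median of 0.31). They became 19 after MM minus WT was subtracted, with a list median of 0.65. Without the array of replicate 1 the list median was 0.63.

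Promoters of 4 called members are shown for the element that the group shares. Each is the 250 bases before the RefSeq start on the strand of the gene (GRCh38.p14), with capitals on matches to the element, 2 copies of GAAA with any 2 bases between them, searched on both strands.
IFI6 (chr1:27672193-27672442, minus strand): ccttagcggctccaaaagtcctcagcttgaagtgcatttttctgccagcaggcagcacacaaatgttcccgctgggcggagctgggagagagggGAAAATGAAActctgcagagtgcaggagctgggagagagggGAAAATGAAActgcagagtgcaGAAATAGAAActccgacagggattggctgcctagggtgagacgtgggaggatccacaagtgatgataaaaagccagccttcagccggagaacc
IFI44L (chr1:78620198-78620447, plus strand): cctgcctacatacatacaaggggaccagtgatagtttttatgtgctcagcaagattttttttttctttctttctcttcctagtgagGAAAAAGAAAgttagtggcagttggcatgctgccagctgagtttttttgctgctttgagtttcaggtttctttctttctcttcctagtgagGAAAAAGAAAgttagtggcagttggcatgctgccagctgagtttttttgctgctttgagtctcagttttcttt
IFITM1 (chr11:313790-314039, plus strand): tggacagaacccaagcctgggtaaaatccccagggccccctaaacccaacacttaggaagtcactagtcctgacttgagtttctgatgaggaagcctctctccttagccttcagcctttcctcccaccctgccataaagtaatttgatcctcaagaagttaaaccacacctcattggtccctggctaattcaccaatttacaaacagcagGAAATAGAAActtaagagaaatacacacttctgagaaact
BST2 (chr19:17405631-17405880, minus strand): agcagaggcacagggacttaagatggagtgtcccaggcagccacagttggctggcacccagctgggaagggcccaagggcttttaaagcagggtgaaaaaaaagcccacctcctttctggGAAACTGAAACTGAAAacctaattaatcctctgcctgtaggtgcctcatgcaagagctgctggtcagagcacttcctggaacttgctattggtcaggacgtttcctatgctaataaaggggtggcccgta
IFI6 held 3 matches, and the 2 matches of BST2 overlap. Of 41 listed genes with a promoter in the table, 27 held the motif (65.9%), against 1014 of 27305 genes in all (3.71%), and so did 8 of the 9 called members in the table. The list was assembled as known interferon targets, so that the share describes the list, and a match is not a measured binding site.

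Several of the largest increases were in membrane signalling. CHRM3, the muscarinic acetylcholine receptor that couples to phospholipase C, gave 6.91 and 6.75 in control and 9.0 and 8.86 in PIM1 samples, a difference of 2.09 (SE 0.0879, adjusted p = 1.68e-06). CHRM2, the related receptor that couples to adenylate cyclase inhibition and was chosen after its values were seen, rose by 1.32. RASD1, a RAS-like GTPase that modulates G protein signalling, rose by 2.03, and the WNT receptor FZD4 by 1.78 (12.78 and 12.74 against 14.64 and 14.44). FST, the secreted activin inhibitor, rose by 1.30 (15 and 15.08 against 16.35 and 16.34), and by 0.78 within a dye, where it was not called. SEMA5A, a transmembrane semaphorin that guides axons, rose by 1.86 and by 2.28 within a dye. KDR, the vascular endothelial growth factor receptor, rose by 1.36, although by 0.91 within a dye, where it was not called. The acid-sensing receptor GPR65, also chosen after its values were seen, rose by 1.57. SPRY4 and SPRED2, inhibitors of RAS and ERK signalling that ERK itself induces, rose by 1.24 and 1.12. They were the called members among 41 early response genes, beside 0.51% of all genes called higher. The median of these 41 was 0.33 (0.23 within a dye). For SPRY4 the 2 probes disagreed, at 0.32 and 2.16, and SPRED2 differed by only 0.25 within a dye.

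Enzymes and trafficking proteins were also among the 15 largest increases. EHD2, an ATPase that stabilises caveolae, gave 8.06 and 7.84 in control and 10.29 and 9.84 in PIM1 samples, a difference of 2.12 (SE 0.131, adjusted p = 1.09e-05), and was the called member among 46 tested genes of endocytic recycling. GALC, the lysosomal galactosylceramidase, rose by 2.10 (9.73 and 9.76 against 11.89 and 11.80). The lysosomal list of 49 genes otherwise held 1 called gene, the cathepsin CTSZ, which fell by 1.27. FABP4, a fatty acid carrier, rose by 1.76, the kinase SNRK by 1.88 (0.89 within a dye, not called there) and UBE2QL1, of the ubiquitin-conjugating family, by 1.76. The steroid and aldehyde reductases AKR1C1 and AKR1C3 and the oestradiol dehydrogenase HSD17B2 rose by 1.21, 1.20 and 1.30, the 3 called members of 29 tested, and all 3 were called within a dye. The shares of all genes were 0.51% called higher and 0.663% lower, and 0.518% higher within a dye.

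In the extracellular matrix and adhesion lists, few members were called and they went both ways. FBN2, a microfibril protein, rose by 1.84 and the proteoglycan AGRN by 1.31, while EFEMP1, a fibulin of the elastic matrix, fell by 1.82 (8.56 and 8.34 against 6.82 and 6.43, with 1 of the 2 PIM1 samples well above background). The median of the 51 matrix genes was 0.20, and 23 were higher and 6 lower at an adjusted p below 0.05 (12.7% and 12.5% of all genes). The protease ADAMTS1 rose by 1.90 and the protease inhibitor SERPINB1 by 1.16. Among 24 integrin subunits only ITGA3, a laminin receptor subunit, was called (12.25 and 12.25 against 13.63 and 13.48, a difference of 1.31). The share of all genes called higher was 0.51%. ITGB4, a subunit of the hemidesmosome, differed by 0.93, and ITGA5, the fibronectin receptor subunit, by 0.27 (adjusted p = 0.0509). For ITGA5 the difference turned to -0.27 after median centring but was 0.66 within a dye (adjusted p = 4.62e-05). After MM minus WT was subtracted it was 0.73. MM and WT cells differ in NFATC1 protein as well as in dye, so this last value is not corrected for dye alone. ZYX, a focal adhesion protein, rose by 1.25, the actin-binding PFN2 by 1.06 (0.31 within a dye), and FERMT1, which activates integrins, fell by 1.07. Its 2 probes gave -1.54 and -0.61, and within a dye it differed by -0.63 and was not called.

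Of the genes that fell, a first set was also called within a dye. MDFI, an inhibitor of myogenic transcription factors, gave 10.97 and 10.75 in control and 8.59 and 8.48 in PIM1 samples, a difference of -2.32 (SE 0.148, adjusted p = 1.22e-05) and -2.28 within a dye. IGF2, the fetal growth factor, gave 10.36 and 10.37 against 8.75 and 8.74, a difference of -1.62 (-2.29 within a dye), although its 2 probes gave -2.52 and -0.73, the second with a mean level of 6.85. H19, the noncoding RNA whose gene neighbours IGF2 and shares its imprinted enhancers, gave 10.41 and 10.42 against 9.07 and 8.83, a difference of -1.46 (-1.86 within a dye). ARHGEF40, a guanine nucleotide exchange factor, fell by 1.78, the oxytocin receptor OXTR by 1.71, the secreted METRNL by 1.72, the calcium-binding TESC by 1.54, KBTBD11 by 1.66 and P3H3, of the collagen prolyl 3-hydroxylase family, by 1.51. HAPLN2, a hyaluronan link protein, fell by 1.55, with a difference of -2.72 within a dye, and this difference between the comparisons was itself called (1.16).

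Cancer-testis antigens, which are expressed in germ cells and silenced by DNA methylation elsewhere, fell in a few members, most of them neighbours on chromosome X. MAGEA6 gave 11.64 and 11.66 against 9.98 and 9.85, a difference of -1.73 (SE 0.0601, adjusted p = 7.09e-07), and MAGEA1 9.46 and 9.34 against 7.94 and 7.70, a difference of -1.58. MAGEA2B fell by 1.17. The neighbouring CSAG1 and CSAG4, chosen after their values were seen, fell by 1.31 and 1.14. These 5 genes were also called within a dye, at -1.62 to -1.42. Among 33 tested genes of the MAGE, GAGE, SSX and PAGE families the 3 MAGEA genes were the called members. The share of all genes called lower was 0.663%, and the median of these families was -0.04. The MAGEA probes may share targets, since these genes are near-identical copies (2 probes of MAGEA6 gave -2.27 and -1.19).

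Few immune and epithelial surface genes were called. The lymphotoxin LTB fell by 1.24, with 1 of the 2 PIM1 samples well above background, and the cytokine IL11 by 1.14. They were the called members among 41 NF-kappaB and cytokine genes, whose median was 0.01, beside 0.663% of all genes called lower. S100A9, a neutrophil and keratinocyte alarmin, fell by 1.42 and the urokinase receptor family member LY6K by 1.68, while S100P of the same list rose. Desmoplakin DSP, which anchors keratins to desmosomes, fell by 1.00 (9.59 and 9.59 against 8.5 and 8.67), with a difference of -1.54 within a dye. JUP, the plakoglobin of the same junctions, rose by 1.09. EPCAM differed by -0.68 and was not called. The haem oxygenase HMOX1 fell by 1.05 and the chaperone cofactor SDF2L1 by 1.11. The transcription factor MYB fell by 1.04, the called member among 32 PIM kinases and known PIM substrates and partners, whose median was -0.08.

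Proliferation genes were lower in both comparisons, most of them by less than the size of a call. S phase genes encode the replication machinery and nucleotide synthesis, and G2 and mitosis genes the spindle and the kinases of division. Of 52 S phase genes, 36 were lower and 2 higher at an adjusted p below 0.05 (12.5% and 12.7% of all genes), with a median of -0.38, and 41 and 0 within a dye (17.4% and 16.7%), with a median of -0.36. Of 55 genes of G2 and mitosis, 31 were lower and 5 higher, with a median of -0.27, and 45 and 2 within a dye, with a median of -0.35. The mean level of the S phase list was 10.64 and 10.71 in the control samples and 10.22 and 10.27 in the PIM1 samples, and with NFATC1 it was 10.72 to 10.73 in the control pool and 10.27 to 10.33 in the PIM1 pool. In PIM1 against control, 3 S phase genes and 1 gene of G2 and mitosis were called lower, beside 0.663% of all genes. After median centring 23 of each list were called lower, with medians of -0.95 and -0.85, but so were 1375 of all genes. GINS4, a subunit of the replicative helicase, fell by 1.37 (12.35 and 12.33 against 10.96 and 10.99) and by 1.23 within a dye. The transcription factor E2F2, the thymidine kinase TK1 and the kinetochore protein SPC25 fell by 1.15, 1.01 and 1.26, and by 0.60, 0.30 and 0.58 within a dye, where they were not called. Ribosome biogenesis genes (44 tested, 0 called) had a median of -0.19, with 14 lower and 2 higher at an adjusted p below 0.05, and oxidative phosphorylation genes (74 tested, 0 called) -0.19, with 33 lower and 13 higher. After median centring 11 and 29 of these were called lower, with medians of -0.74 and -0.90, beside the same 1375 over all genes. Glycolysis genes had a median of 0.22 that turned to -0.35 after median centring, and PFKFB4, which sets the level of fructose 2,6-bisphosphate, rose by 1.02 as the called member.

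Replication-dependent histone genes behaved differently from the other S phase genes. Their mRNAs end in a stem-loop in place of a poly(A) tail and are made in S phase to package new DNA. Of 58 tested, 0 were called higher and 12 lower (0.51% and 0.663% of all genes), with a median of -0.53. Within a dye, however, 0 were called in either direction and the median was 0.01. H3C15 gave 13.26 and 13.09 in control and 10.31 and 10.30 in PIM1 samples, a difference of -2.87 (SE 0.0678, adjusted p = 8.16e-08) and the largest fall of any gene with a symbol. Its level was 12.95 and 12.90 in WT, 11.58 and 11.63 in PIM1 + WT, 11.93 and 11.86 in MM and 11.93 and 12.01 in PIM1 + MM samples. PIM1 cells were thus lowest and control cells highest of the 6 groups, and this held for all 12 called histone genes. These genes were called for being lower in PIM1 than in control cells, so this order is in part built in. H3C2, H4C5 and H2AC20 fell by 1.98, 1.91 and 1.87, and by 0.51, 0.38 and 0.59 within a dye. The difference between the 2 comparisons was called for 8 of the 12, and for H3C15 it was -2.25. Over all 58 tested histone genes it was called for 9, beside 0.385% of all genes.

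Small noncoding RNAs showed the same pattern. RN7SK, the RNA that holds the elongation factor P-TEFb inactive, gave 13.85 and 13.86 against 11.79 and 11.67, a difference of -2.12 (SE 0.0881, adjusted p = 1.65e-06) and -0.25 within a dye. SNORA28, a guide of ribosomal RNA pseudouridylation, gave 9.05 and 8.85 in control samples and did not clear background in either PIM1 sample. It was at least 5.05-fold lower (adjusted p = 7.09e-07) but differed by 0.06 within a dye. SNORD3B-1, a U3 RNA of ribosomal RNA processing, fell by 1.93 and the primate-specific SNAR-A3 by 1.76, with 0.10 and 0.06 within a dye. Of 17 small nuclear, nucleolar and 7S RNAs tested, 8 were called lower and 0 higher (0.663% and 0.51% of all genes), with a median of -0.86 (-0.20 within a dye, 1 called). All 8 were lowest in PIM1 and highest in control cells, an order that their call in part builds in. The member also called within a dye was SCARNA13, which guides the modification of small nuclear RNA and fell by 2.09, with a difference of -1.42 within a dye. The difference between the comparisons was called for 6 of the 8, and for 6 of all 17 tested.

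MM differs from WT by dye and also by the NFATC1 protein expressed. After MM minus WT was subtracted, 7 of the 58 histone genes were still called lower (list median -0.37) and 6 of the 17 small RNAs (-0.80). Over all 25471 genes 121 were called lower in that setting. The 12 histone genes and the 8 small RNAs were all lower in MM (Cy5) than in WT (Cy3) cells, all lower in PIM1 + WT than in WT cells, and 7 of 12 and 3 of 8 lower in PIM1 + MM than in MM cells. These members were selected by their call in PIM1 (Cy5) against control (Cy3), which can favour such orders. The share of all genes with these orders was not counted. Neither group depended on 1 array, with 11 histone genes and 8 small RNAs called without the array of replicate 1. The part of the dye in these falls was not tested beyond this subtraction. Histone genes and U3 RNA genes are near-identical copies, and their probes may share targets.

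**Figure D3:**
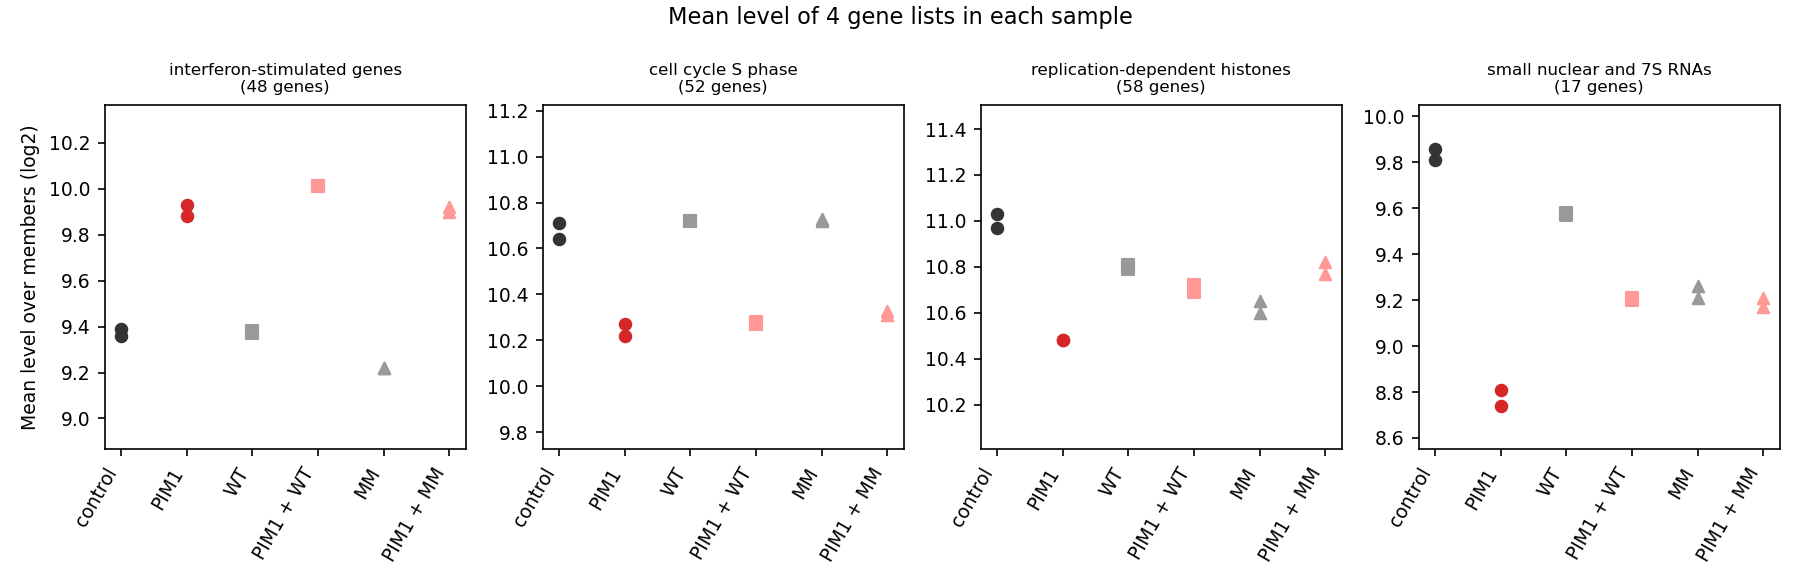
Mean level over the measured members of 4 gene lists (log2, y axis, the same span of 1.5 in each panel) in each of the 12 samples, with 2 points per group. The interferon and S phase lists separate the PIM1 pool (red and pink) from the control pool (black and grey), whereas for histones and small RNAs the PIM1 samples alone lie below the other 10.

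No called gene was found among 496 zinc finger genes, 283 olfactory receptors, 75 ribosomal proteins, 79 mitochondrial ribosomal proteins, 31 proteasome genes, 31 HOX genes or 45 keratins, with medians between -0.09 and 0.04. Over all genes 1.17% were called, so that 0 calls in the smaller of these lists is near that share. Median centring spread the medians of these lists, from -0.81 for the proteasome to 0.71 for olfactory receptors, around a median of all genes of 0.128. The mesenchymal list of 27 genes held 1 called member, the ecto-5'-nucleotidase NT5E, which rose by 1.15, and vimentin (VIM) differed by -0.01 (adjusted p = 0.923). The neuroendocrine programme (16 tested) held none. Of 31 genes of the BCL2 family, HRK, a death-promoting BH3-only protein, was called and fell by 1.07 (-0.75 within a dye, not called there). BAK1, a pore-forming member, differed by 0.89 and was called within a dye (1.13). ACTB and GAPDH, often used as references, differed by 0.53 (adjusted p = 0.00013) and 0.56 (adjusted p = 0.000534), which turned to -0.10 and -0.08 after median centring, and TBP differed by -0.05.

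Called genes lay next to each other in places. With genes ordered along the chromosomes of the RefSeq annotation, 21 groups of called genes of 1 direction lay within 3 tested genes of each other, 8 higher and 13 lower. The groups held 46 of the 260 called genes that could be placed, among 18809 placed genes. Whether this exceeds what the share of called genes alone would give was not tested. Besides the pairs and clusters named above (TFF1 and TFF2, IFI44 and IFI44L, IGF2 and H19, and the MAGEA and CSAG genes), the groups held AKR1C1 with AKR1C3, IFITM1 with IFITM2, GALC with GPR65, MNX1 with its antisense gene MNX1-AS1 (-1.27 and -1.62), and the metallothioneins MT1E and MT1B (-1.09 and -1.04). The AKR1C, IFITM and metallothionein genes are close copies, and their probes may share targets. MNX1-AS1 overlaps or abuts MNX1, and their signals may not be separate. Histone genes of chromosome 6 made 2 clusters of 3. By chromosome, the median difference ran from -0.041 on chromosome 14 to 0.077 on chromosome 3. There 12 genes were called higher and 1 lower of 1018 tested, beside 0.51% and 0.663% of all genes. The median of chromosome 3 was 0.083 on the array of replicate 1, 0.086 on the other and 0.038 within a dye.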

How the data were processed

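RNA of 12 samples was hybridised to 6 two-colour Agilent arrays, counted as 2 slides from the replicate numbers. The authors deposited, per spot, the intensity (median signal, local background, processed signal, flags) and a table of quantile-normalized log2 values, per the labels made with limma. The array annotation names hg19. Each sample was read from its own dye.

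The arrays held 43118 spots of 34127 probes besides controls. Spots flagged as outliers (230 to 835 per channel) were dropped, spots of a probe averaged, and 31484 probes kept whose signal passed the 90th percentile of the negative controls in at least 2 of 12 channels. Quantile normalization without background subtraction and the median per symbol (RefSeq, GRCh38.p14) gave 25471 genes, 18857 with a symbol. limma 3.58.1 (R 4.3.3) was fitted with a mean for each of the 6 groups and no block, and p-values were two-sided and adjusted by Benjamini-Hochberg over all genes. They measure the spread between samples, which the labels do not state to be separate cultures. A group well above background on none of its arrays gives a bound. The test of the difference between the 2 comparisons was added after the data were seen.

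Gene lists and their members were chosen with earlier results of these data known, so counts and medians are descriptions. Genes were named by rule: PIM1, ACTB, GAPDH, TBP, ITGA5, the 15 largest changes per direction with 1 sign on both arrays, the 10 per direction called in both comparisons with the largest smaller change, and up to 4 called members per list. Others were chosen after their values were seen. On simulated data with 200 of 25315 genes changed by 1.5, 99.0% were called in PIM1 minus control, with 5 unchanged genes. The simulated noise was independent between channels, without a dye difference or a deviation shared within an array, so these figures cover neither.

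The replicate number was taken to mark the slide, which the sample titles do not state. Replicate 1 of control and PIM1 shared an array, and replicate 2 of both shared another. Deviations of same-numbered samples correlated at 0.834 between control and PIM1, which share an array. They correlated at 0.499 between WT and MM and at 0.345 between PIM1 + WT and PIM1 + MM, which also share arrays. Over the pairs of groups without a shared array they correlated between 0.051 and 0.172. Some items are not reported here. Alternatives covered background, normalization, filter, flags, probe summary, blocks, dye and samples.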

Additional observations from a re-analysis of the deposited data

Results flagged for a closer look

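The groups of 2 samples are too small for a search for outlying samples. The difference between the comparison of PIM1 with control and the difference within a dye was tested in the same fit and was called for 98 genes. Among the genes named, it was -2.25 for H3C15, -2.42 for SNORA28, -1.87 for RN7SK, -1.47 for H3C2, -2.03 for SNORD3B-1, -1.53 for H4C5, -1.28 for H2AC20 and -1.82 for SNAR-A3, all further down in PIM1 against control than within a dye. HAPLN2 (1.16) and RNA18SN5 (1.26) went the other way and fell further within a dye.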

How the results depend on the processing

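The count of 299 between PIM1 and control cells rose to 1596 after median centring (13.8% higher, against 43.5%) and to 1001 with the software's processed signal, which shared 205 and 277 of the 299 genes. The count of 234 within a dye rose to 921 with the processed signal (42.1% higher, against 56.4%), and after median centring it was 223 (37.7% higher). The cause was not tested. Subtracting MM minus WT left 301 calls, 217 of them shared. It ended the calls of RBM8A, SLC7A11, HMOX1, LTB, TK1, GADD45A, SPRED2, HES2, NT5E, FERMT1 and TUBA8. All other alternatives stayed within 1.5 times. Leaving out 1 sample gave 307 to 393 calls for PIM1 and control and 226 to 253 within a dye, and leaving out the array of replicate 1 gave 295 and 231. With the replicate block the counts were 303 and 235, with the array as a fixed block 305, and a fixed array block allows no estimate within a dye. Median centring moved the median of all genes from 0.009 to 0.128 and turned PIM1 to -0.31, ACTB to -0.10, GAPDH to -0.08 and ITGA5 to -0.27, and leaving out 1 of the 4 samples gave TBP -0.11 to 0.01, the last without control replicate 1. Of the 82 called genes named by rule, none reversed under any alternative, and 24 lost the call after median centring, among them IFI6, OASL, ITGA3, ZYX, SPRY4 and HSD17B2. RBM8A, which by size belonged to the 15 largest falls (-2.03), rested on the array of replicate 1 (-3.78 there, -0.28 on the other) and lost its call in 9 of 19 alternatives. Leaving out 1 sample or the array of replicate 1 also ended calls of SLC7A5, SLC7A11, SDF2L1, PFKFB4, P4HA1, IL11, MYB, TK1, GADD45A, HRK, HES2, DSP, PFN2 and TUBA8. Dim genes were least measurable in Cy5, where the median background of PIM1 replicate 2 was 115 against a median signal of 176.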

Other observations

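Several called genes stood outside every list and were called in both comparisons. The phosphodiesterase PDE2A, which degrades cyclic AMP and cyclic GMP, gave 8.31 and 8.36 in control and 9.95 and 10.15 in PIM1 samples, a difference of 1.72 (2.28 within a dye). The complement regulator CD55 gave 12.43 and 12.55 against 13.99 and 13.75, a difference of 1.38 (1.33 within a dye), and the orphan nuclear receptor NR2F1 rose by 1.12 (1.70 within a dye). The LIM homeobox genes LHX1 and LHX2, which lie on different chromosomes, fell by 1.48 and 1.35, with -1.1 and -1.18 within a dye (LHX2 was well above background in 1 of the 2 PIM1 samples). The signals named for the ribosomal RNAs RNA18SN5 and RNA28SN5 fell by 1.24 and 1.21, and within a dye they differed by -2.50 and -1.18. The difference between the comparisons was called for RNA18SN5 (1.26), and RNA28SN5 was not called after MM minus WT was subtracted (-0.40).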
